A study of Homo sapiens with 4 samples.

Results

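The 7 genes described here, KRTAP1-1, KRTAP1-5, KRTAP2-1, KRTAP2-2, KRTAP2-3, KRTAP2-4 and KRTAP3-1, encode keratin-associated proteins and were taken by symbol from a table of 58735 genes that holds 112 KRTAP symbols. They were selected on their expression in the same samples, that is, with the shZDHHC15 against shCON values of these genes already known, so their levels and fold changes are given as a description, with no test. RNA was sequenced from HCC1954, an established human breast cancer line with amplified ERBB2 (HER2), in 2 groups of 2 samples. The shCON samples carried a scrambled short hairpin RNA (shRNA) and the shZDHHC15 samples carried GIPZ shRNA against ZDHHC15, an enzyme that attaches palmitate to cysteines of other proteins. Per the labels, plasmids were transiently transfected and cells harvested at 36 h, whereas the study also describes stably depleted lines and clonal cultures screened for the shRNA, and the sources used here do not say which of these the libraries came from, or whether replicate numbers mark cultures or hairpins. The spread between the samples of a group may thus be technical. Sample totals ran from 17560982 to 19118704 counts, and the replicates of each group differed by more than sampling noise.

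Keratin-associated proteins form the matrix between keratin filaments in the hair shaft, where their many cysteines are cross-linked to the hair keratins by disulfide bonds. The high-sulfur families KRTAP1, KRTAP2 and KRTAP3 lie in a cluster on chromosome 17 among the type I keratins, while most glycine- and tyrosine-rich families lie on chromosome 21. They are best known from the cortex of the growing hair rather than from breast epithelium.

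All 7 genes lay on the minus strand of chromosome 17 within 57.4 kb (GRCh38, chr17:41008521-41065879, GENCODE release 29). No exon of another annotated gene overlapped an exon of any of them. KRTAP1-3 and KRTAP1-4 were the only other annotated genes between the outermost of the 7, with at most 1 count in any sample. The encoded proteins were rich in cysteine, which took 24.1% and 25.4% of the codons of KRTAP1-5 and KRTAP1-1, 26.8% to 27.3% of those of the KRTAP2 genes and 18.4% of those of KRTAP3-1.

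The 4 KRTAP2 genes are near-identical copies, which bears on how reads could be told apart. KRTAP2-3 and KRTAP2-4 shared 386 of 387 coding bases, and their only coding difference was T333C, counted from 1 at the first base of the start codon, with the KRTAP2-3 base first. KRTAP2-1 differed from KRTAP2-4 by C30G alone and from KRTAP2-3 by C30G and C333T, with the KRTAP2-1 base first. KRTAP2-2 lacked 15 of these 387 coding bases. The 41 coding bases around position 333 (the capital) show the only base by which reads from this part of the KRTAP2-3 and KRTAP2-4 messages can be told apart. They are written 5′ to 3′ on the gene's strand with their GRCh38 coordinates.
KRTAP2-3, chr17:41059698-41059738: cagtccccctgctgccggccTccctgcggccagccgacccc
KRTAP2-4, chr17:41065493-41065533: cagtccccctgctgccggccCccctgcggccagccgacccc
KRTAP2-1, chr17:41046915-41046955: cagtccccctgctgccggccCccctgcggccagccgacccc

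Outside the coding sequence the copies diverged more. The 250 bases before the annotated start were 48.5% to 64.5% identical between pairs of KRTAP2 genes in gapped alignments. The annotated starts lie at different distances from the TATA motif, so these identities depend on where each window was placed. The longest run shared by all 4 KRTAP2 promoters was 18 bases long, and among 27305 RefSeq promoters searched it was found in these 4 only. The capitals below mark this run in the 100 bases before each RefSeq start (GRCh38.p14, minus strand, 5′ to 3′). They are shown because all 4 genes keep this run, which holds the TATA motif (TATAAA). KRTAP2-1, KRTAP2-2 and KRTAP2-4 shared a longer run of 46 bases around it, and KRTAP2-2 and KRTAP2-4 shared 61. KRTAP2-3 differed from these copies right after the 18 bases.
KRTAP2-3, chr17:41060115-41060214: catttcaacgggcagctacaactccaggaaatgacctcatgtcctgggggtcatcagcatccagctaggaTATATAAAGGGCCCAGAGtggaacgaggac
KRTAP2-4, chr17:41065880-41065979: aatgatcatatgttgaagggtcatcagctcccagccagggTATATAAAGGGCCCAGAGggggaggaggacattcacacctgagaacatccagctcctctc
KRTAP2-2, chr17:41055231-41055330: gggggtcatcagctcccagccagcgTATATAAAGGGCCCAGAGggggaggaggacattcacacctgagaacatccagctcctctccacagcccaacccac
KRTAP2-1, chr17:41047317-41047416: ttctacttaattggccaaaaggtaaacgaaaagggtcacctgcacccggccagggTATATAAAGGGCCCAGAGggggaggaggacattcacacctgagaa
For KRTAP1-5 and KRTAP3-1, the other members of the 7 that passed the filter on low counts, the capitals mark the TATAAA match itself.
KRTAP1-5, chr17:41027209-41027308: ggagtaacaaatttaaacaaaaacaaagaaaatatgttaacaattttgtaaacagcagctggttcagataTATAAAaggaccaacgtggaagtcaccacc
KRTAP3-1, chr17:41009129-41009228: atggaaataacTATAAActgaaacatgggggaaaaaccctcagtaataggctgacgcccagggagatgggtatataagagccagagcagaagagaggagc
The KRTAP3-1 stretch lies upstream of the RefSeq start but inside the bounds of the gene in GENCODE, which includes a longer transcript.

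All 7 promoters held TATAAA on the gene's strand. Its first base stood 28 bases before the start in KRTAP2-3, 30 in KRTAP1-1 and KRTAP1-5, 43 in KRTAP2-1, 58 in KRTAP2-4, 73 in KRTAP2-2 and 89 in KRTAP3-1, and KRTAP1-5 had another match at 175. Although the KRTAP3-1 stretch also holds tatataag nearer the annotated start, only exact matches to TATAAA were counted. The motif, searched on both strands of 250 bases, was present in 77.8% of 81 KRTAP promoters and in 11.1% of all 27305 promoters. GGAATG, the core bound by TEAD factors, was found in KRTAP3-1 only, against 11.9% of all promoters. TGANTCA, the AP-1 motif, was in none of the 7, against 6.60% of all promoters. CTTTGA, a core of the LEF1/TCF motif, was found in KRTAP1-5 and KRTAP3-1, against 11.4% of all promoters and 29.6% of KRTAP promoters. These matches describe letters in a window and do not show that a factor was bound.

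ZDHHC15, the gene targeted by the shRNA, had 17617 and 15716 counts in shCON and 0 in each shZDHHC15 sample, at least 6045-fold lower against a limit of 3 counts per library. The direction is that of the labels, but a knockdown usually leaves some transcript, and the sources used here do not say why none was counted. HCC1954 identity was checked on 8 markers (ERBB2, GRB7, EPCAM, CDH1, KRT5, KRT8, KRT18 and KRT19), all of which had counts. Of these, 6 were called lower, 1 (KRT19) higher and 1 (CDH1) was not called, against 20.3% lower and 21.7% higher over all tested genes. KRT8 and KRT18, keratins of simple epithelia, had log2 fold changes of -1.62 and -1.58, while KRT19 had 0.44. Of 8 fibroblast markers, 7 had a count and only COL1A1 passed the filter on low counts, with a summed level of 5.98 and 7.41 CPM (read counts scaled to library size) in shCON and 11.5 and 8.66 in shZDHHC15, COL3A1 and DCN being at 0 or 1 count in each library. Of 8 leukocyte markers, 6 had a count and only CD14 passed, with summed levels of 1.32 and 0.949 CPM in shCON and 2.36 and 1.94 in shZDHHC15, and PTPRC at 1 to 4 counts. The fibroblast sum was almost all COL1A1 (100 and 120 counts in shCON, 214 and 161 in shZDHHC15). COL1A1 was called higher (log2 fold change 0.65, edgeR adjusted p = 0.0232), as was CD14 (1.61, edgeR adjusted p = 0.0159). CD14 had 9 and 5 counts in shCON and 25 and 22 in shZDHHC15, and passed the filter only through shZDHHC15. The other markers had few counts and went either way. THY1 (3 and 3 counts against 0 and 1) and COL1A2 (5 and 1 against 0 and 3) were not higher, while CD68 was (1 and 1 against 2 and 7). The part of the fibroblast and leukocyte markers in the KRTAP values was not tested. In bulk RNA, fewer cells with a transcript and less transcript per cell cannot be told apart.

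Among the 7 genes, 4 passed edgeR's filter on low counts (KRTAP2-3, KRTAP2-4, KRTAP1-5 and KRTAP3-1) and 3 did not (KRTAP1-1, KRTAP2-1 and KRTAP2-2). Of those that passed, KRTAP2-4, KRTAP1-5 and KRTAP3-1 did so only through shCON, where they were high. In 5 of the 7, both shZDHHC15 samples lay below both shCON samples in CPM scaled by the trimmed mean of M-values (TMM). These were the 4 that passed the filter and KRTAP1-1, which did not pass and had 6 and 1 counts in shCON. Across the 15817 genes tested, which all passed the filter, this was so for 35.3%. With the quasi-likelihood test of edgeR, 20.3% of tested genes were called lower and 21.7% higher in shZDHHC15 at an adjusted p under 0.05. Since the same comparison was known when these 7 were chosen, nothing is read from their count.

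**Figure D1:**
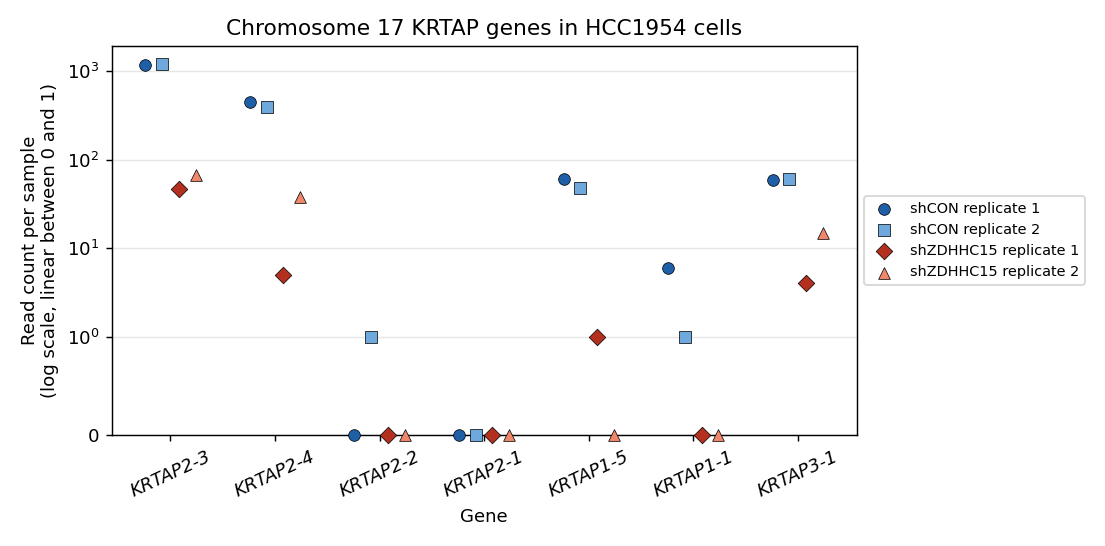
Read counts of the 7 chromosome 17 KRTAP genes (x axis) in each of the 4 samples (y axis, log scale that is linear between 0 and 1). KRTAP2-3 had over 1000 counts in both shCON samples and 46 and 67 in the shZDHHC15 samples, while KRTAP2-1 had 0 in all 4.

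KRTAP2-3 (ENSG00000212724, chr17:41059240-41060114), a high-sulfur matrix protein gene, carried most of the signal. In shCON it had 1169 and 1183 counts, and in shZDHHC15 46 and 67. The groups were far apart, and the samples of each group lay close together. Scaled levels were 67.1 ± 4.25 CPM in shCON and 2.94 ± 0.667 CPM in shZDHHC15 (mean ± SD, n = 2), and the fitted log2 fold change, shZDHHC15 minus shCON, was -4.50 with a standard error (SE) of 0.163. The shCON sum of counts, scaled to library size, was 22.7 times that of shZDHHC15 with an exact 95% counting interval of 18.8 to 27.6, which covers counting error only.

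KRTAP2-4 (ENSG00000213417, chr17:41065116-41065879) was the next most abundant of the 7. Its counts were 441 and 390 in shCON and 5 and 38 in shZDHHC15. The groups did not overlap, but the shZDHHC15 samples differed from each other far more than for KRTAP2-3. The level was 23.7 ± 0.756 CPM in shCON and 1.10 ± 1.18 CPM in shZDHHC15 (mean ± SD, n = 2), and the log2 fold change was -4.39 ± 0.318 (SE). This size depended on the library, with -6.43 when shZDHHC15 replicate 2 was left out and -3.61 when shZDHHC15 replicate 1 was left out.

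KRTAP2-2 (ENSG00000214518, chr17:41054498-41055230) had a single count, in shCON replicate 2. KRTAP2-1 (ENSG00000212725, chr17:41046541-41047316) had 0 counts in every sample, which allows up to 3 counts per library, or 0.153 to 0.178 CPM. With stretches of 100 bases, 47.0% of the positions along the KRTAP2-1 transcript, 53.5% along KRTAP2-2, 66.0% along KRTAP2-3 and 51.9% along KRTAP2-4 had a sequence found in no other gene of the annotation. Reads from these stretches could be assigned to their gene, so the near-absence of KRTAP2-1 and KRTAP2-2 counts concerns those stretches, and reads from the rest could have been divided among the copies or dropped. The counting tool, its treatment of shared reads and the read length are not given in the sources used here.

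Summing the 4 KRTAP2 genes removes the question of which of these copies a counted read came from. Shared reads that were dropped, if any, are not brought back by the sum. The sum was 1610 and 1574 counts in shCON and 51 and 105 in shZDHHC15. Levels were 90.8 ± 3.54 CPM and 4.04 ± 1.85 CPM (mean ± SD, n = 2), and the log2 fold change fitted on the sum was -4.48 ± 0.186 (SE). The difference between the groups was thus also there when the copies were counted together, although the shZDHHC15 samples differed between themselves. KRTAP2 genes made up 92.7% and 93.5% of the counts of all 7 genes in shCON and 91.1% and 87.5% in shZDHHC15.

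The split between the copies was not the same in the shZDHHC15 samples. KRTAP2-4 took 27.4% of KRTAP2 counts in shCON replicate 1 (exact 95% interval 25.2% to 29.6%) and 24.8% in shCON replicate 2 (22.7% to 27.0%). It took 9.80% in shZDHHC15 replicate 1 (3.26% to 21.4%) and 36.2% in shZDHHC15 replicate 2 (27.0% to 46.1%). The shCON intervals overlapped each other, the shZDHHC15 intervals did not, and the shCON shares lay between the shZDHHC15 shares, so the split did not move in a shared direction with the group. These intervals cover counting error only.

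**Figure D2:**
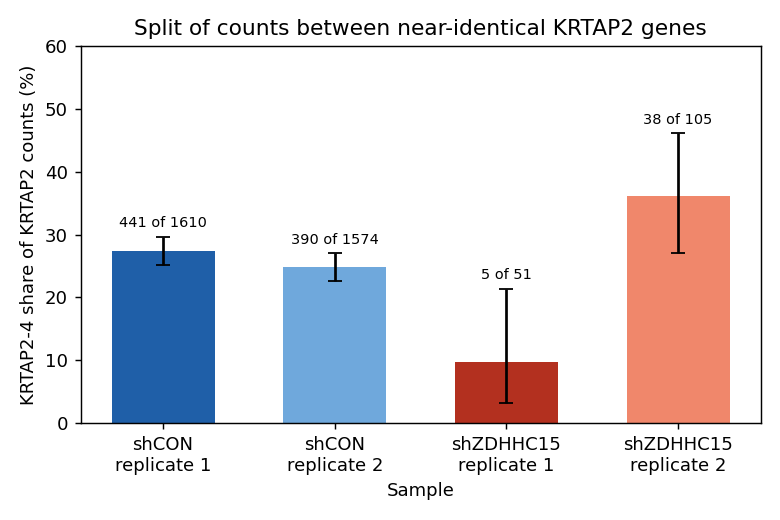
KRTAP2-4 counts as a share (y axis, percent) of the counts of KRTAP2-1 to KRTAP2-4 in each sample (x axis). Bars give the share, error bars the exact 95% binomial interval, and the counts stand above each bar, from 5 of 51 to 38 of 105 in the shZDHHC15 samples.

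KRTAP1-5 (ENSG00000221852, chr17:41026026-41027202) is a member of the KRTAP1 family, whose coding sequences are less alike, with 81.6% identity to KRTAP1-1. It had 61 and 48 counts in shCON and 1 and 0 in shZDHHC15. The gene was nearly absent from both shZDHHC15 samples. With a total of 1 count there, the scaled ratio of shCON to shZDHHC15 was 119, with an exact 95% counting interval of 20.9 to 4734. At stretches of 100 bases all of its positions were unique to it, so shared reads bear on this gene less than on the KRTAP2 genes.

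KRTAP1-1 (ENSG00000188581, chr17:41040559-41041461) had 6 and 1 counts in shCON and 0 in both shZDHHC15 samples. Its levels were too low for a fold to be given.

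KRTAP3-1 (ENSG00000212901, chr17:41008521-41019324) belongs to the KRTAP3 family and has the shortest coding sequence of the 7, 297 bases. Its counts were 59 and 60 in shCON and 4 and 15 in shZDHHC15. The shCON samples were nearly equal, and the shZDHHC15 samples were both lower but apart from each other. Levels were 3.40 ± 0.227 CPM in shCON and 0.490 ± 0.388 CPM in shZDHHC15 (mean ± SD, n = 2), and the log2 fold change was -2.76 ± 0.416 (SE). The value was -3.94 without shZDHHC15 replicate 2 and -2.14 without shZDHHC15 replicate 1. All positions of its transcript were unique at stretches of 50, 100 and 150 bases.

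The 3 genes outside the KRTAP2 family, KRTAP1-1, KRTAP1-5 and KRTAP3-1, summed to 126 and 109 counts in shCON and 5 and 15 in shZDHHC15. These genes, too, were chosen with their values known, so the sums are a description. In KRTAP2-3, KRTAP2-4 and KRTAP3-1 the higher shZDHHC15 count was in replicate 2, whereas the last KRTAP1-5 count was in replicate 1.

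Levels of different genes were compared per kb of transcript, as CPM divided by annotated exon length. In shCON the order was KRTAP2-3 (76.7 ± 4.86), KRTAP2-4 (31.0 ± 0.989), KRTAP3-1 (4.69 ± 0.313), KRTAP1-5 (2.63 ± 0.301), KRTAP1-1 (0.215 ± 0.211), KRTAP2-2 (0.0404 ± 0.0572) and KRTAP2-1 at 0 (CPM per kb, mean ± SD, n = 2). The upper 4 were separated by more than their SD, while the lower 3 were not. In shZDHHC15 KRTAP2-3 was at 3.36 ± 0.762, KRTAP2-4 at 1.44 ± 1.54, KRTAP3-1 at 0.675 ± 0.536 and KRTAP1-5 at 0.0228 ± 0.0323 CPM per kb, and here the samples of KRTAP2-4 and KRTAP3-1 overlapped, while KRTAP2-3 and KRTAP2-4 did not overlap sample by sample but lay within their SDs of each other. The order of the 4 most abundant genes was the same in both groups.

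The other KRTAP genes were examined for the same comparison. Of 105 other KRTAP symbols, 26 had a count and 5 were tested, of which 4 were called lower in shZDHHC15, 0 higher, and 1, the antisense transcript KRTAP5-AS1, was not called (log2 fold change -0.58, adjusted p = 0.312). The median log2 fold change of these 5 was -4.12 (-3.95 with KRTAP20-1, which had 0 counts in shZDHHC15, placed at its bound), against 0.02 over all tested genes. The 4 called genes passed the filter on low counts only through shCON, where they were high, so their count and median are a description. When every sample had to reach 10 counts, 0 of these 4 were left to test. Without shCON replicate 1, KRTAP20-1 was not tested and 3 were called. The 4 called were all protein-coding genes of chromosome 21, where 13 of 49 coding KRTAP genes had a count. The 27 other coding KRTAP genes of chromosome 17 held no tested gene, and the most abundant of them, KRTAP4-8, which lies 37.7 kb from KRTAP2-3, had 8 and 9 counts in shCON and 1 and 0 in shZDHHC15. Of the 11 coding genes on chromosome 11, 3 had a count and none passed the filter.

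The 4 chromosome 21 genes called encode small glycine- and tyrosine-rich matrix proteins, with these residues at 60.6% to 67.9% of codons and cysteine at 5.56% to 12.7%. KRTAP6-1 (chr21:30613431-30613930) had 119 and 109 counts in shCON and 8 and 6 in shZDHHC15, a difference of -4.12 ± 0.346 (log2 fold change ± SE, edgeR adjusted p = 3.39e-07). KRTAP20-2 (chr21:30635236-30635619) had 103 and 113 counts in shCON and 6 and 9 in shZDHHC15, a difference of -3.95 ± 0.354 (log2 fold change ± SE, adjusted p = 6.82e-07). In both genes the groups were far apart and the samples within a group close together. KRTAP19-5 (chr21:30501657-30502117) had 42 and 39 counts in shCON and 0 and 3 in shZDHHC15 (log2 fold change -4.76 ± 0.644 SE, adjusted p = 3.23e-05), with -3.86 when shZDHHC15 replicate 1, the library at 0, was left out. KRTAP20-1 (chr21:30616425-30616699) had 16 and 14 counts in shCON and 0 in both shZDHHC15 samples, at least 5.44-fold lower against 3 counts per library (adjusted p = 4.65e-04). These genes had sequences of their own at stretches of 50 bases, so no stretch of that length was shared with the chromosome 17 genes.

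The genes whose pattern over the 4 samples was most like that of KRTAP2-3 were found by the Euclidean distance between log2 CPM values centred on each gene's mean. KRTAP20-2 was nearest (0.821), followed by KRTAP19-5 (0.865), KRTAP6-1 (0.898), NLRP3 (1.12) and AADACL3 (1.18), among the protein-coding tested genes outside the 7. NLRP3, an inflammasome sensor, had 226 and 227 counts in shCON and 19 and 9 in shZDHHC15. AADACL3, an arylacetamide deacetylase-like gene, had 70 and 79 counts in shCON and 6 and 6 in shZDHHC15. The 3 nearest were KRTAP genes of another chromosome. All of these nearest genes, NLRP3 and AADACL3 included, passed the filter on low counts only through shCON. The 3 KRTAP genes had at most 9 counts in a shZDHHC15 sample. KRTAP2-3 was itself chosen with its values known. Nearness to KRTAP2-3 therefore largely restates a large fall in shZDHHC15, and the order is given as a description, with no test.

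**Figure D3:**
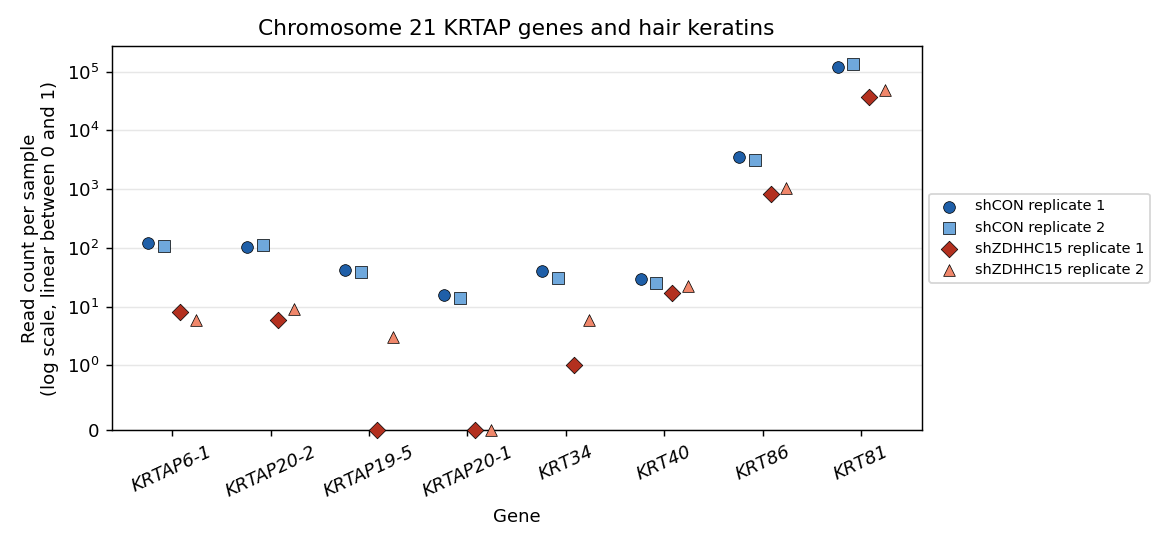
Read counts in each of the 4 samples (y axis, log scale that is linear between 0 and 1) of 4 KRTAP genes of chromosome 21 and the 4 hair keratins that passed the filter on low counts (x axis). KRT81 stood highest, from 36549 to 133924 counts, and KRT40 was the one gene with a small difference between the groups.

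Hair keratins are the filament proteins that the keratin-associated proteins embed. All 17 had a count, 4 were tested, and 3 of these were called lower and 0 higher (20.3% and 21.7% of all tested genes), with a median log2 fold change of -1.84. Of these, KRT34 passed the filter on low counts only through shCON, so its call and its part in the median are a description. When every sample had to reach 10 counts, 2 hair keratins were called lower. KRT34, a type I hair keratin of the same chromosome 17 region, had 40 and 31 counts in shCON and 1 and 6 in shZDHHC15 (log2 fold change -3.42 ± 0.550 SE, adjusted p = 1.79e-04), with -5.07 without shZDHHC15 replicate 2 and -2.70 without shZDHHC15 replicate 1. KRT86 and KRT81, type II hair keratins of chromosome 12, were far more abundant. KRT81 had 118473 and 133924 counts in shCON and 36549 and 48368 in shZDHHC15, a difference of -1.71 ± 0.117 (log2 fold change ± SE, adjusted p = 3.96e-08). KRT86 had 3585 and 3150 counts in shCON and 813 and 1058 in shZDHHC15, a difference of -1.97 ± 0.112 (log2 fold change ± SE, adjusted p = 4.34e-09). Only 69.7% of KRT81 and 71.7% of KRT86 positions were unique at stretches of 100 bases, and the exons of KRT86 overlap those of AC021066.3 on the same strand and of AC021066.1 and AC121757.1 on the opposite strand, so these values could share reads. KRT40 was not called (log2 fold change -0.59, adjusted p = 0.22). KRT8 and KRT18, keratins outside the hair shaft, had log2 fold changes of -1.62 and -1.58 beside these. KRT5 and KRT19, also outside it, had -0.64 and 0.44. The fall of KRT81 and KRT86 was smaller than the log2 fold change of -4.50 described for KRTAP2-3, a contrast that was not tested.

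Other genes of the hair shaft and hair matrix that could be tested did not move the same way. Their list was fixed with earlier results of these data known. EDAR, TGM3, PKP1 and CRYM had at most 4 counts in any library and were among those not tested. Of 25 such genes, 18 were tested, and 12 were called higher and 0 lower (1 lower with DESeq2 size factors, upper-quartile factors or a replicate block), against 21.7% and 20.3% over all tested genes, and the median log2 fold change was 0.62. SELENBP1, a selenium-binding protein, rose from 53 and 62 counts to 238 and 213 (log2 fold change 1.85 ± 0.208 SE, adjusted p = 6.89e-06). PADI1, which converts arginine to citrulline in epithelial proteins, rose from 63 and 53 to 190 and 167 counts (log2 fold change 1.498 ± 0.212 SE, adjusted p = 5.76e-05). S100A3, a calcium-binding protein of the hair cuticle, rose from 34 and 58 to 125 and 135 counts (log2 fold change 1.37 ± 0.261 SE, adjusted p = 7.19e-04), with 0.95 without shCON replicate 1. LEF1, the transcription factor that acts with Wnt signals in the hair matrix, had 25 and 11 counts in shCON and 38 and 46 in shZDHHC15 (log2 fold change 1.09, adjusted p = 0.0306), a call lost without shCON replicate 2 (0.67, adjusted p = 0.276) and without shZDHHC15 replicate 2 (0.98, adjusted p = 0.0956). CDH3, encoding P-cadherin, was the most abundant of the list, at 502 ± 25.9 CPM in shCON and 650 ± 19.5 CPM in shZDHHC15 (mean ± SD, n = 2, log2 fold change 0.37, adjusted p = 3.19e-03). Its call was lost without shZDHHC15 replicate 1 (adjusted p = 0.0529).

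The 500 kb on either side of the 7 genes hold many of the type I keratins, but not all. Of 79 other genes there, 41 had a count, 12 were tested, 7 were called lower, 2 higher and 3 not called (20.3% lower and 21.7% higher over all tested genes), with a median log2 fold change of -0.74 against 0.02 over all tested genes. Among those called lower, KRT34 and AC004231.1 passed the filter on low counts only through shCON, so their calls are a description. When every sample had to reach 10 counts, 5 were called lower and 2 higher. KRT13, a keratin of stratified epithelia, had 262 and 274 counts in shCON and 52 and 81 in shZDHHC15 (log2 fold change -2.14 ± 0.203 SE, adjusted p = 1.22e-06). KRT9, a keratin of palm and sole skin, had 165 and 135 counts in shCON and 55 and 91 in shZDHHC15 (log2 fold change -1.16, adjusted p = 8.75e-04). AC004231.1, whose exons overlap those of KRT23 on the opposite strand, had 16 and 16 counts in shCON and 8 and 4 in shZDHHC15 (log2 fold change -1.52, adjusted p = 0.0364), a call lost without shCON replicate 1, shCON replicate 2 or shZDHHC15 replicate 2, at adjusted p of 0.0862, 0.134 and 0.252. KRT15, a basal keratin and the most abundant of these neighbours, was at 1273 ± 78.6 CPM in shCON and 1249 ± 91.4 CPM in shZDHHC15, a log2 fold change of -0.03 that was not called (adjusted p = 0.841) and whose sign changed with the scaling. SMARCE1 and KRT19 were the 2 genes called higher, at log2 fold changes of 0.75 and 0.44. KRT17, a keratin of chromosome 17 outside this window, was more abundant than KRT15, at 5760 and 6584 CPM in shCON. It had 1748 and 2375 CPM in shZDHHC15 and was called lower (log2 fold change -1.58, edgeR adjusted p = 1.50e-07). The strand setting of the counting is not given. Reads of KRT13, LEF1, CDH3, AC004231.1 and KRT23 could thus not be told apart from those of genes overlapping their exons on the opposite strand. KRT10 and TMEM99, both called lower, overlap in span on opposite strands, and overlap of their exons was not checked.

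**Figure D4:**
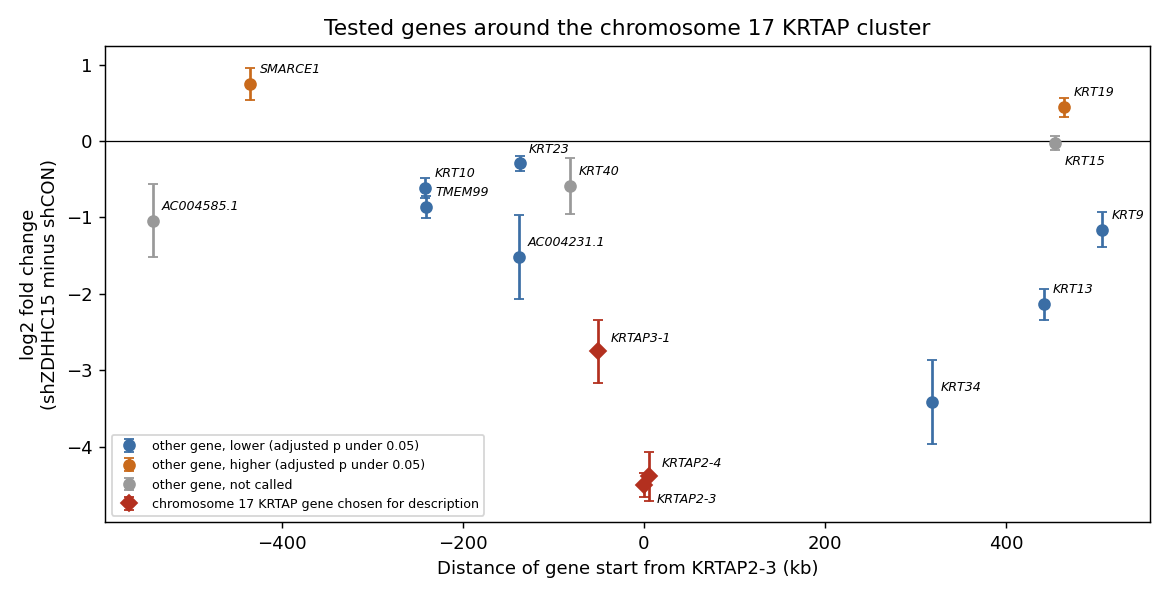
Log2 fold change (y axis, shZDHHC15 minus shCON, error bars are standard errors) of tested genes by the distance of their start from that of KRTAP2-3 in kb (x axis). Among these, KRTAP2-3 and KRTAP2-4 (diamonds) lie lowest, followed by KRT34 at 318 kb and KRTAP3-1 (diamond), and SMARCE1 and KRT19 lie above 0. KRTAP1-5 is left out because its shZDHHC15 total was 1 count.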

How the data were processed

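RNA-seq libraries of 4 HCC1954 samples were made by the authors with a NEBNext Ultra kit from total RNA. The authors deposited 1 table of raw read counts per gene, and HISAT2, StringTie and SAMtools with build hg38 are named in the submitters' processing notes, without roles or versions. The aligner settings, the counting tool and its strand setting are not given in the sources used here. All 58735 gene identifiers had the start and end of GENCODE release 29. Groups were taken from the labels. Counts were filtered with filterByExpr, scaled by TMM and fitted with the quasi-likelihood test of edgeR 4.0.16 in R 4.3.3, with Benjamini-Hochberg adjustment over 15817 tested genes (common biological coefficient of variation 0.0877) and a threshold of 0.05. CPM used the TMM-scaled totals of tested genes. DESeq2 1.42.0 was an alternative. The fit was tested on simulated data. The 7 genes and all lists were chosen with earlier results of these data known. In each list the 4 called genes of largest change and the most abundant gene are named, with the 5 genes nearest in pattern to KRTAP2-3. KRT10, KRT17, KRT19, KRT23, KRT40, TMEM99, SMARCE1, KRTAP4-8 and KRTAP5-AS1 were named after their values were seen. Replicates differed by 8.32 (shCON) and 6.79 (shZDHHC15) chi-square units per degree of freedom. Promoters are those of RefSeq (GRCh38.p14). A stretch was unique when no other GENCODE gene's transcript held it.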

Additional observations from a re-analysis of the deposited data

How the results depend on the processing

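The counts of genes called were recomputed under other scalings, tests and filters and without each sample in turn, the lone sample then being assumed to vary like the other group. Without a filter on low counts 2350 genes were called lower and 2282 higher, against 3217 and 3427 as fitted. Requiring at least 10 counts in every sample left KRTAP5-AS1 as the other KRTAP gene to test, so 0 were called lower. Of the hair shaft and hair matrix genes 1 was called lower with DESeq2 size factors, with upper-quartile factors and with a replicate block, and the fit with the replicate block called 3502 genes lower and 3723 higher and ended no call among the named genes. Same-numbered samples did not deviate together (r = 0.0344), so the numbers were not treated as pairs. Of the cluster neighbours 1 was called higher with the DESeq2 Wald test and 1 to 2 when leaving out a sample. KRT15 turned to a log2 fold change of 0.049 with library size only, and ranged from -0.119 to 0.0405 when leaving out a sample. LEF1 and AC004231.1 also lost their calls with the DESeq2 Wald test (adjusted p = 0.129 and 0.185) and without a filter (adjusted p = 0.1005 and 0.0839). The log2 fold change of KRTAP2-3 stayed between -4.77 and -4.30 under all alternatives run. KRTAP19-5 was at -8.38 without shZDHHC15 replicate 2, which leaves 0 counts in that group, so this value depends on the prior count, and S100A3 was at 1.85 without shCON replicate 2. The cause of these changes was not tested beyond what each alternative removes by construction. At these depths genes under about 3 counts per library were below what can be compared, which holds for KRTAP2-1 and KRTAP2-2.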
